A study of Mus musculus with 66 samples.

Results

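The genes described are the receptors for glucocorticoid hormone and a set of genes that it induces, measured in the ventral striatum of mice over a day. They are Nr3c1, Nr3c2, Fkbp5, Sgk1, Tsc22d3, Zbtb16, Cdkn1a, Errfi1, Mt1 and Mt2, found as the rows of the gene expression table whose symbol equals the name, so that the set holds 10 of 24138 genes. RNA came from punches of the nucleus accumbens (NAcc) of adult male C57BL/6 mice kept in 12 h of light and 12 h of dark, and was read by strand-specific poly(A) RNA-seq. Wild-type (WT) mice were compared with iMSN-D2RKO mice, in which a floxed dopamine D2 receptor (D2R) gene is cut by Cre driven by the D1R promoter. That promoter is active in the precursors of medium spiny neurons (MSN), so that D2R is lost from the MSNs of the indirect pathway (iMSNs) and the Cre is also present in the direct pathway. Mice of both genotypes received cocaine (20 mg/kg, i.p.) or saline at ZT3, where zeitgeber time (ZT) counts hours from lights on. Tissue was taken at ZT3 and at ZT7, ZT11, ZT15, ZT19 and ZT23, with 3 libraries per group. The ZT3 libraries of a genotype stand in both of its treatment series, so that 72 listed columns hold 66 distinct libraries in 22 groups. Their labels give both treatments together and their column names say saline. Whether these mice were injected before harvest is not given in the sources used here, and they were taken as a shared first time point. Values are FPKM, read fragments scaled by transcript length and by library size, and differences are on the log2(FPKM + 1) scale, which understates the change of genes with low values.

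Glucocorticoid hormone, corticosterone in mice, crosses the cell membrane and binds the glucocorticoid receptor (Nr3c1) or the mineralocorticoid receptor (Nr3c2), which heat shock proteins hold in a form able to bind the hormone. The bound receptor enters the nucleus and raises transcription of genes near its binding sites, among them its own regulator Fkbp5. Corticosterone of nocturnal rodents is highest around the onset of darkness, here between ZT11 and ZT15, and lowest in the morning, and it also rises with stress and with psychostimulants. The hormone was not measured in these animals.

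The libraries were not all alike. The main axis of variation within groups held 43.6% of the variance and set 13 libraries apart from the other 53. These 13, 6 WT and 7 iMSN-D2RKO, came from ZT7, ZT15, ZT19 and ZT23, and 10 of the 22 groups held at least 1 of them. 1 further library, iMSN-D2RKO saline ZT7 replicate 1, had the highest total (690048 FPKM, against a median of 396432) and the second lowest relative depth (0.421 of the median library, read from the low values of 1439 genes seen in few libraries). The lowest relative depth was that of WT cocaine ZT15 replicate 3, at 0.381. The 13 set-apart libraries were also low, from 0.504 to 0.806. Apart from all these, the lowest library was iMSN-D2RKO saline ZT11 replicate 1, at 0.823. The part of depth in the main axis was not tested. Read numbers are unknown, since FPKM hold no counts. Drd2, the gene deleted in iMSNs, did not separate the genotypes: it ranged from 99.1 to 304 FPKM in WT and from 78.0 to 375 FPKM in iMSN-D2RKO, with a difference of 0.01 in saline (limma, Benjamini-Hochberg adjusted p = 0.996). FPKM per gene show neither single exons nor cell types. For the loss of D2R from iMSNs the study refers to earlier ligand binding and in situ hybridization with exon-specific probes. All 10 markers of medium spiny neurons were at 1 FPKM or more in every library, as the label of the tissue says. Astrocyte, oligodendrocyte, microglial and vascular markers were also present in every library. In such bulk tissue fewer cells of a type and less RNA per cell cannot be told apart.

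Promoter sequences of the members were searched for elements named for the pathway. RefSeq promoters, from 250 bases before to 50 bases after a transcript start in GRCm38.p6, were matched for 8 of the 10 members. The glucocorticoid response element searched was AGAACA, 3 free bases and TGTTCT, the palindrome that a pair of receptors binds, on both strands. It occurred in 3 of 32851 promoters, or 0.00913%. One of them belongs to Sgk1, which has 6 promoters in the table. It lies at chr10:21993640-21993939 on the plus strand, inside the gene span (chr10:21882184-21999903), and its sequence is shown with the element in capitals, at bases 189 to 175 before the start.

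Sgk1: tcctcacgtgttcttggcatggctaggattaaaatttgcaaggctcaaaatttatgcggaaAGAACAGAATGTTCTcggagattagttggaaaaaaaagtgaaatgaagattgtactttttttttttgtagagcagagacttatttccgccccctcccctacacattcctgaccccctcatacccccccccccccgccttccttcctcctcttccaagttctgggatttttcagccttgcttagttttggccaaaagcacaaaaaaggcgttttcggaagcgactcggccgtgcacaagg

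A single arm, TGTTCT, was found in 18.97% of all promoters, among them a promoter of Tsc22d3 and further promoters of Sgk1. The Sgk1 window shown holds 3 such arms, 2 of them inside the palindrome, and the third overlaps an E-box (CACGTG), which stood in 7.15% of promoters. Mt1 and Mt2 carry another kind of element. Metallothionein genes are switched on through metal response elements, searched here as TGCACNC and TGCGCNC on both strands, which are in capitals in the next pair of promoters. Mt1 (chr8:94178839-94179138, plus strand) and Mt2 (chr8:94172368-94172667, plus strand) are neighbours, with 5514 bases from the end of Mt2 to the start of Mt1 in the GENCODE gene spans.

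Mt1: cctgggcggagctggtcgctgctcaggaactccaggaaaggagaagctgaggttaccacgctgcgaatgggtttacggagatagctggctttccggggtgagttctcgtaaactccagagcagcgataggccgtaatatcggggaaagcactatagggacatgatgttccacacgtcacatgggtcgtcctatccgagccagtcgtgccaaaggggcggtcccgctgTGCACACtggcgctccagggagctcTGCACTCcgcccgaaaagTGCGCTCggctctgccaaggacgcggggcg

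Mt2: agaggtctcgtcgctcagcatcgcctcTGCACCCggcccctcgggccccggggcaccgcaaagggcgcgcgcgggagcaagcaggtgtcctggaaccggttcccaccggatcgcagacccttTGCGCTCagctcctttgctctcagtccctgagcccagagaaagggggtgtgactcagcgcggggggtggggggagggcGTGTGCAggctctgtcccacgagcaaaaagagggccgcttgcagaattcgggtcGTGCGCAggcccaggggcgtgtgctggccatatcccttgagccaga

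Counted from the RefSeq transcript starts, Mt1 holds 3 of these elements, 1 before the start and 2 after it. Mt2 holds 4, 3 before its RefSeq start and 1 after it. GENCODE starts Mt2 later, at chr8:94172664, past all 4 elements. At least 3 stood in 1.97% of all promoters and at least 4 in 0.517%. A single TGCGCNC match also stood in the promoter of Nr3c2 and in another promoter of Sgk1. Such matches describe letters in these windows and are not measured binding. A lack of the exact palindrome in a window does not show that a member has no receptor binding site.

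The metallothioneins, small metal-binding proteins, had the highest levels per transcript length. Mean FPKM over the 66 libraries was 793 ± 481 (SD) for Mt1 and 312 ± 161 for Mt2. Sgk1, a kinase that regulates ion channels and transporters, followed at 42.7 ± 17.3, and Tsc22d3, which encodes the anti-inflammatory protein GILZ, at 30.8 ± 8.99. The glucocorticoid receptor Nr3c1 was at 19.7 ± 4.42, its co-chaperone Fkbp5 at 14.8 ± 2.90 and the mineralocorticoid receptor Nr3c2 at 10.7 ± 2.55. Errfi1, an inhibitor of the epidermal growth factor receptor, was at 9.90 ± 2.08, the cell cycle inhibitor Cdkn1a at 8.87 ± 2.84 and the zinc finger repressor Zbtb16 at 2.28 ± 1.09. Neighbours in this order were not always apart. Mt1 exceeded Mt2, Mt2 exceeded Sgk1 and Cdkn1a exceeded Zbtb16 in all 66 libraries, but Nr3c2 exceeded Errfi1 in only 41 and Errfi1 exceeded Cdkn1a in only 31. All members passed the filter of 1 FPKM in at least 1 library. Zbtb16 reached it in 62 of 66 libraries and the other 9 members in every one.

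**Figure D1:**
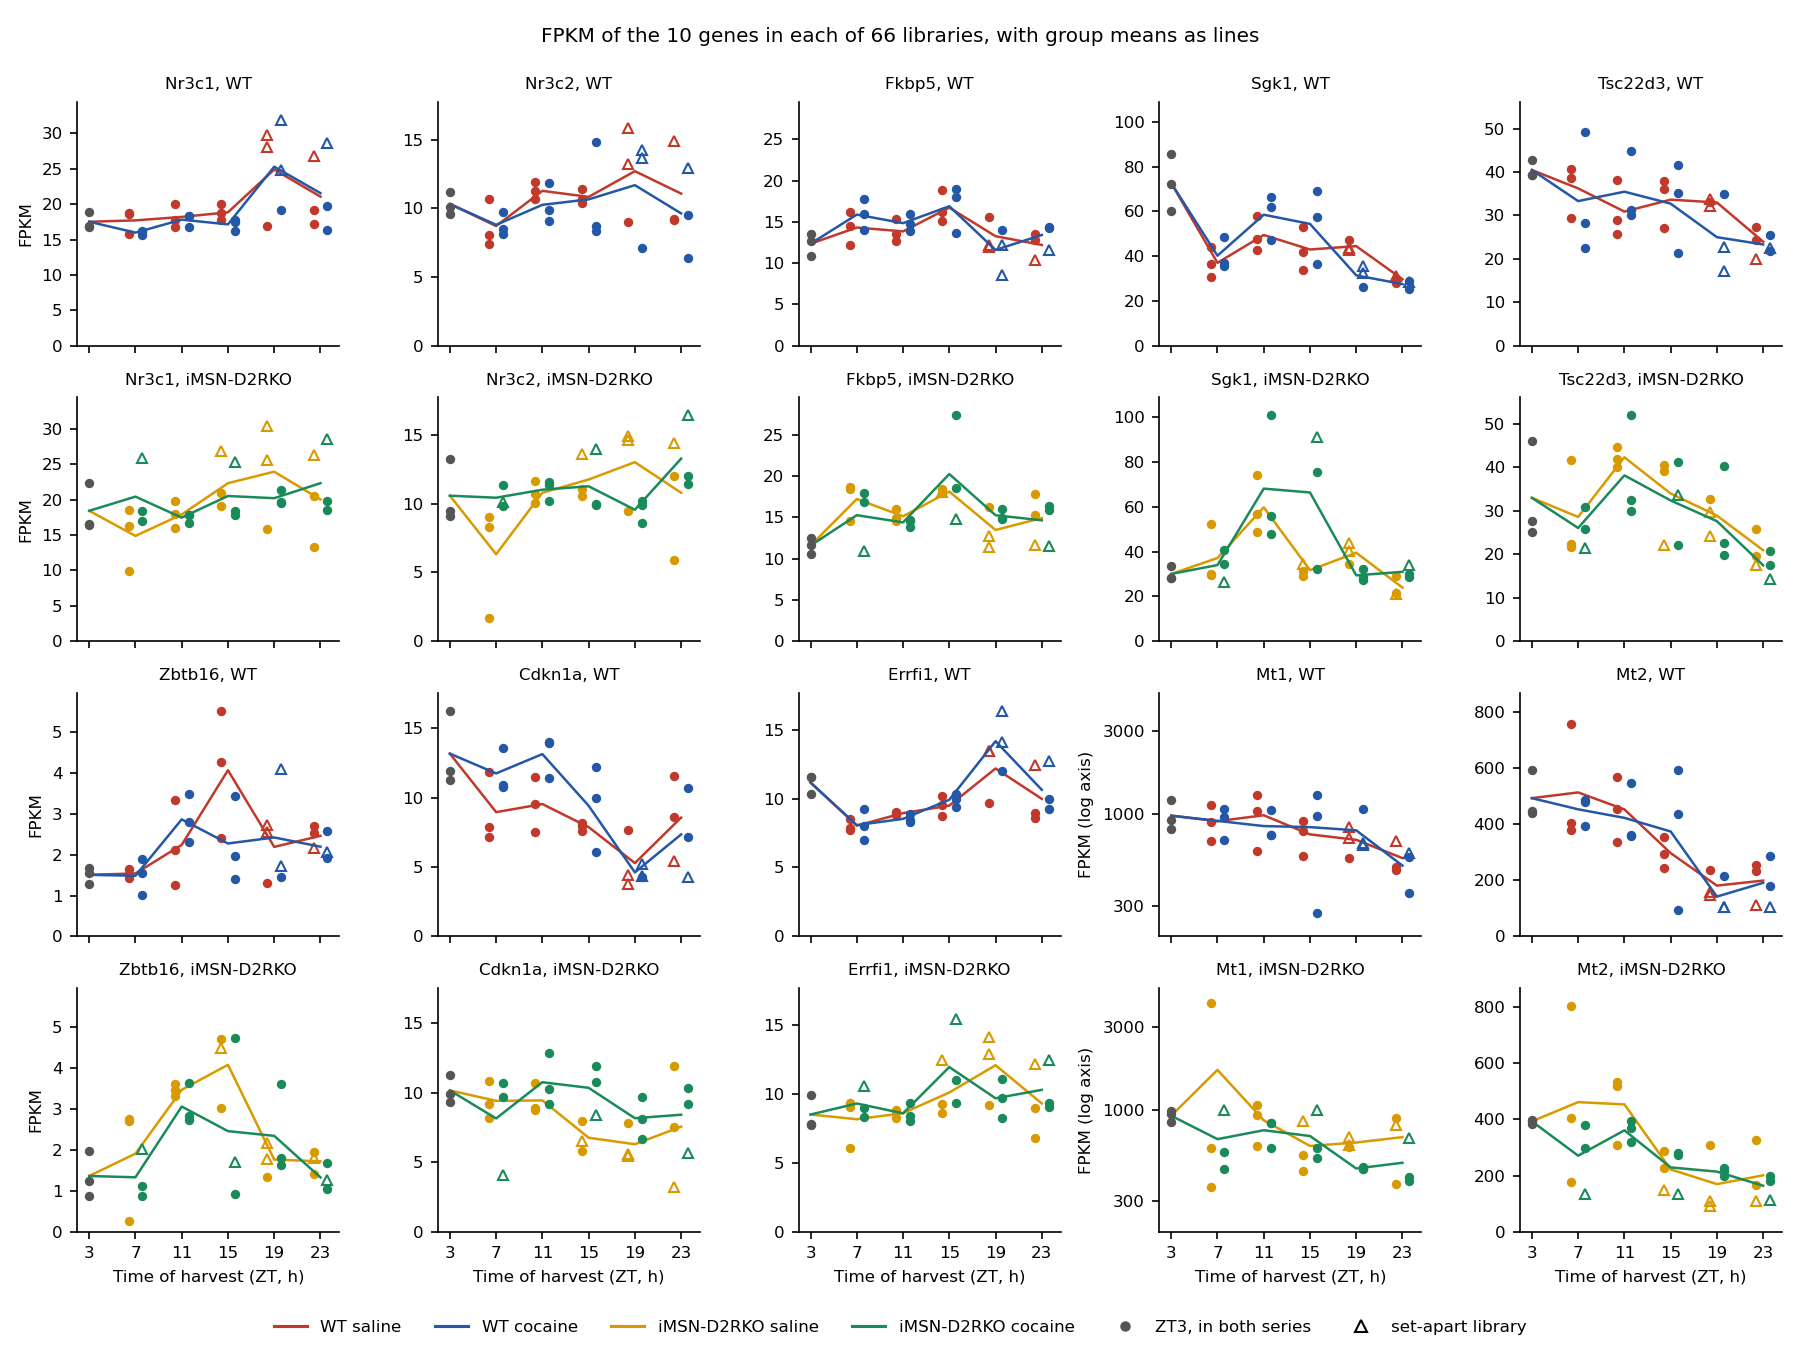
FPKM of each member (y, linear from 0, but a log axis for Mt1) against zeitgeber time in hours (x) in WT and iMSN-D2RKO, with 1 mark per library, coloured by treatment (ZT3 grey, set-apart libraries as open triangles), and lines through the means of each group of 3. Sgk1 of WT starts near 72.7 FPKM at ZT3, where iMSN-D2RKO is near 30.0, and Mt2 is lower at ZT19 and ZT23 than before ZT15.

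Does the set follow the daily course of the hormone? Evening libraries (ZT11 and ZT15, n = 24) were compared with morning libraries (ZT23 and ZT3, n = 18). The difference was averaged over the 4 series of genotype and treatment. Mice of the evening and of ZT23 had been injected at ZT3, while injection of the ZT3 mice is not given. Time of day and time since injection thus cannot be told apart in this contrast. Sgk1, Zbtb16 and Fkbp5 were higher in the evening, and no member was lower. Thus 3 of the 10 members passed the test (limma, Benjamini-Hochberg adjusted p below 0.05), all upward, where 1.17% of the 14643 genes tested passed it and 0.765% were higher. The members were chosen with earlier results of these data known, so that this count beside the share of all genes is a description. The same 3 genes passed without the 13 set-apart libraries, where 1.34% of all genes did.

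Sgk1 ranged from 29.3 to 101 FPKM with a median of 50.8 in the evening, and from 21.01 to 85.6 with a median of 29.0 in the morning. The ranges overlapped: the 3 WT libraries of ZT3 were high in Sgk1, while every library of ZT23 was at 33.9 or below, a level that some iMSN-D2RKO libraries of ZT15 did not reach. Its difference was 0.50 (SE 0.10, adjusted p = 0.00345), 1.41-fold. Zbtb16 ranged from 0.927 to 5.52 FPKM with a median of 3.18 in the evening, and from 0.870 to 2.69 with a median of 1.74 in the morning. Its difference was 0.56 (SE 0.12, adjusted p = 0.00984), on values low enough for the scale to hold the fold down. Fkbp5, which lowers the hormone affinity of the receptor and is induced by it, ranged from 12.7 to 27.4 FPKM with a median of 15.2 in the evening. In the morning it ranged from 10.3 to 17.8 with a median of 12.8. Its difference was 0.31 (SE 0.07, adjusted p = 0.01001). ZT7 is not in the contrast. Median Fkbp5 at ZT7 was 15.2 FPKM in WT and 17.4 in iMSN-D2RKO. These lay above the medians of ZT11 (14.3 and 14.6) and below those of ZT15 (17.1 and 18.2).

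The other members did not pass. Tsc22d3 was at a median of 35.5 FPKM in the evening and 24.8 in the morning, a difference of 0.30 (SE 0.11, adjusted p = 0.212). The differences of Mt2, Mt1, Nr3c2, Cdkn1a, Nr3c1 and Errfi1 lay between -0.05 and 0.21. For Nr3c1 the interval of 2 SE ran from -0.22 to 0.13. The median over the 10 members was 0.15, against -0.0042 over all genes. Of the cell type lists, the endothelial sum had a median of 94.9 FPKM in the evening and 114 in the morning. Cldn5 fell by 0.55 (adjusted p = 0.0390), 1 of 6 endothelial markers called, while 3 of the 6 differences were above 0 and their median was -0.06. The 5 markers of cortical excitatory neurons were all lower in the evening, by differences from -0.67 to -0.23, with none called. Choroid plexus markers summed to 61.6 to 176 FPKM in the 6 libraries of ZT3, and their Ttr differed by -1.96 in the evening contrast (adjusted p = 0.201). Single evening libraries held more, up to 1138 FPKM in iMSN-D2RKO saline ZT11, while the evening median was 9.80. No marker other than Cldn5 passed the test in these cell type lists, and the part of cell type shares in these differences was not tested.

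The genes of the hormone pathway outside the set were taken by role, but with earlier results of these data known. Counts of these lists beside the share of all genes are thus a description. Of 24 further glucocorticoid-induced genes, 23 were tested, and 6 rose in the evening while none fell, where 0.765% of all genes rose. The fitted difference was below 0 for 5 of the 23, and for 8 without the set-apart libraries. Plin4, a coat protein of lipid droplets, ranged from 0.545 to 9.35 FPKM (median 2.28) in the evening and from 0.174 to 1.32 (median 0.517) in the morning, a difference of 1.201 (SE 0.14, adjusted p = 1.59e-07). Hif3a, a hypoxia-inducible factor, was at a median of 1.33 in the evening and 0.478 in the morning, a difference of 0.68 (SE 0.09, adjusted p = 8.24e-06). Every evening library of Plin4 lay above its morning median. Mfsd2a, a lipid transporter of the blood-brain barrier, ranged from 12.3 to 28.6 FPKM in the evening and from 9.70 to 18.7 in the morning, and rose by 0.31 (adjusted p = 0.00130). Sult1a1, Klf15 and Map3k6 rose by 0.43, 0.29 and 0.25. Slc2a1, the glucose transporter GLUT1, missed the threshold with a difference of 0.28 (adjusted p = 0.0501), as did the clock gene Per1 with 0.31 (adjusted p = 0.0529). The median of the 23 was 0.20. Without the set-apart libraries 5 of the 23 passed, Map3k6 being the one lost.

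Genes of the chaperones that hold the receptor were also tested. Of 9 receptor chaperones and co-chaperones, 3 fell in the evening and none rose, where 0.41% of all genes fell, with a median of -0.24, and the fitted difference was below 0 for all 9. Stip1, which joins Hsp70 to Hsp90, ranged from 46.9 to 143 FPKM (median 66.2) in the evening and from 69.9 to 159 (median 90.7) in the morning. It fell by 0.34 (SE 0.09, adjusted p = 0.0329). Hsp90aa1, the inducible Hsp90, fell by 0.20 (adjusted p = 0.0349, and 0.0629 with median-of-ratios scaling) and Hspa4 by 0.19 (adjusted p = 0.0384). In the order WT saline, WT cocaine, iMSN-D2RKO saline and iMSN-D2RKO cocaine, Stip1 differed by -0.46, -0.67, -0.21 and 0.003. Hsp90aa1 differed by -0.35, -0.42, -0.06 and 0.01 in the same order, and Hspa4 by -0.30, -0.37, -0.11 and 0.02. The average of these 3 genes thus rests mostly on the WT series. Without the set-apart libraries 2 of the 9 passed, Stip1 and Hsp90aa1, and 1 of the 9 differences was above 0. None of 4 corticosteroid enzymes and transporters, 9 coregulators or 9 relatives of the members passed in the evening contrast. Hsd11b1, which regenerates active hormone, differed by -0.02 (SE 0.15). For reference, the clock genes Dbp and Per2 rose by 0.66 and 0.53 and Arntl fell by 0.39 in the same contrast.

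**Figure D2:**
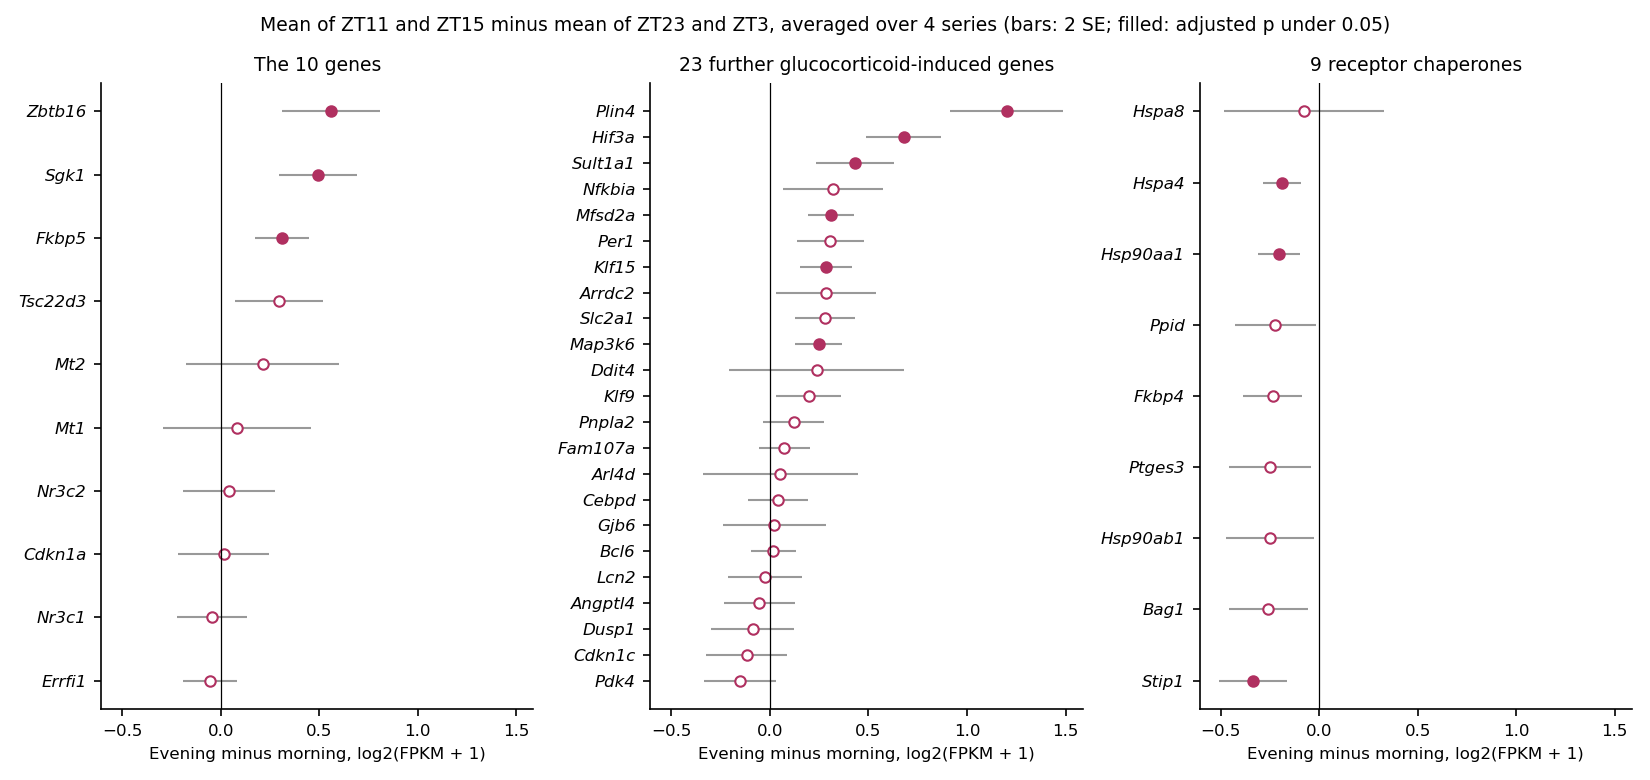
Difference between evening (ZT11 and ZT15) and morning (ZT23 and ZT3) on the log2(FPKM + 1) scale (x) for the 10 members and the pathway genes (y), averaged over the 4 series, with bars of 2 SE and filled points for genes past an adjusted p of 0.05. Sgk1, Zbtb16 and Fkbp5 lie between 0.31 and 0.56, Plin4 at 1.201 and the 3 called chaperones below 0.

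Both series of a genotype share its 3 libraries of ZT3, so that their evening differences are not independent. Within single series the evening difference was uneven for Sgk1. It was -0.02 in WT saline, 0.30 in WT cocaine, 0.68 in iMSN-D2RKO saline and 1.02 in iMSN-D2RKO cocaine, each with SE 0.18. Only the last passed (adjusted p = 0.00492), 1 of 10 members where 0.0478% of all genes did. No member passed in WT saline, WT cocaine or iMSN-D2RKO saline alone, where 0.0546%, 1.63% and 0.041% of genes did, and 1, 1 and 4 members had an unadjusted p below 0.05, where 5.01%, 17.2% and 2.81% of genes did. In iMSN-D2RKO cocaine Sgk1 was 55.7, 47.7 and 101 FPKM at ZT11 and 32.3, 75.7 and 91.3 at ZT15. It was 33.9, 30.1 and 28.8 at ZT23 and 28.3, 33.5 and 28.2 at ZT3. 5 of 6 evening libraries stood above all 6 morning libraries. It no longer passed when the set-apart libraries were dropped (0.91, adjusted p = 0.130), without ZT11 replicate 3 (adjusted p = 0.0677), without ZT15 replicate 2 (adjusted p = 0.0624) or in a fit of the compared groups alone (adjusted p = 0.9999). The difference between the genotypes in this contrast, 0.71 (SE 0.20), did not pass (adjusted p = 0.612, where 0.0205% of genes passed). That difference includes the ZT3 libraries, where mean Sgk1 was 72.7 FPKM in WT and 30.0 in iMSN-D2RKO. In WT saline mean Sgk1 was 49.5 FPKM at ZT11, 43.0 at ZT15 and 29.7 at ZT23. The early-response gene Arc, an activity marker, differed between the genotypes in the same contrast by 1.69 (adjusted p = 0.0318), and what it shares with Sgk1 was not tested. Fkbp5 was even over the series, with 0.29, 0.28, 0.32 and 0.35 in the same order. Zbtb16 had differences of 0.41, 0.30, 0.92 and 0.61, none past the threshold alone.

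At ZT3, the time of injection, Sgk1 separated the genotypes. It was 72.3, 60.1 and 85.6 FPKM in WT and 28.3, 33.5 and 28.2 in iMSN-D2RKO. The groups did not overlap, and iMSN-D2RKO was lower by a log2 difference of -1.24 (SE 0.25, limma, Benjamini-Hochberg adjusted p = 0.0317). It was the only 1 of 10 members called, where 0.041% of all genes were. The call held without the 13 set-apart libraries (adjusted p = 0.0294), none of which is from ZT3. It was lost in 5 of the 6 fits that left out 1 ZT3 library each (adjusted p from 0.0796 to 0.276) and in a fit of the ZT3 libraries alone (adjusted p = 0.159). The log2 difference stayed between -1.11 and -1.32 when any of those 5 libraries was left out. Of the other members Errfi1 came next, at 11.6, 10.3 and 11.6 FPKM in WT against 7.76 to 9.94 in iMSN-D2RKO, a difference of -0.36 (adjusted p = 1). The log2 differences of the remaining members lay between -0.34 and 0.06.

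The sum of early-response genes was also higher in WT than in iMSN-D2RKO at this time. The summed FPKM of Fos, Fosb, Junb, Egr1, Arc and Npas4, which neurons switch on within minutes of firing, was 808, 341 and 497 in WT and 153, 175 and 297 in iMSN-D2RKO. These groups did not overlap, and in the 21 groups other than WT ZT3 the mean sum lay between 142 and 428. None of the 6 genes passed the test on its own. Arc had the smallest adjusted p (difference -1.89, adjusted p = 0.0879), and Fos was 46.0, 13.5 and 18.1 in WT and 2.64, 6.80 and 6.04 in iMSN-D2RKO. The part of these genes in the Sgk1 difference was not tested. Over the 22 group means, Sgk1 and this sum had a correlation of 0.04, and of -0.34 over the libraries within groups, given as a description. Summed endothelial markers ran from 103 to 108 FPKM in WT and from 124 to 149 in iMSN-D2RKO at ZT3, with none of the 6 called. Of their 6 differences 4 were above 0 and 2 below, with a median of 0.06. All 7 oligodendrocyte and all 3 mural differences were above 0, with none called. The part of these markers in the Sgk1 difference was not tested. The 5 markers of cortical excitatory neurons were all lower in iMSN-D2RKO at ZT3, with differences from -1.18 to -0.63 and none called. Their sum ran from 138 to 268 FPKM in WT and from 16.4 to 206 in iMSN-D2RKO, which overlap, and their part in the Sgk1 difference was not tested. In the genotype difference of the evening contrast all 5 were above 0, from 0.54 to 1.10. The 23 further glucocorticoid-induced genes had a median difference of -0.41 at ZT3, with none called.

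**Figure D3:**
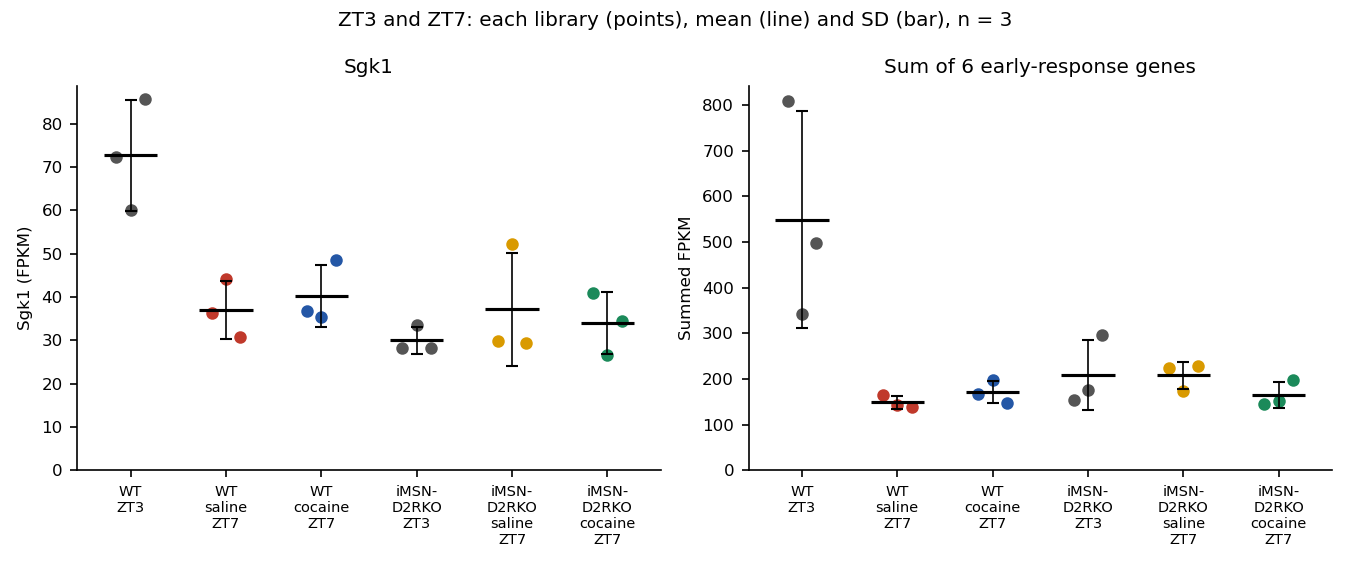
Sgk1 (left) and the summed FPKM of the 6 early-response genes (right) in each library (points) with the group mean (horizontal line) and SD (vertical bar) for ZT3 and for ZT7 after saline or cocaine, WT and iMSN-D2RKO. At ZT3 the 3 WT libraries stand above the 3 iMSN-D2RKO libraries for both, and at ZT7 the genotypes overlap for Sgk1.

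At ZT7 the genotypes overlapped in Sgk1. WT was 36.4, 44.04 and 30.6 FPKM after saline and 36.8, 35.4 and 48.4 after cocaine, and iMSN-D2RKO was 29.9, 52.1 and 29.4 after saline and 40.8, 26.6 and 34.5 after cocaine. All 6 WT libraries of ZT7 lay under all 3 of ZT3, while the iMSN-D2RKO libraries of both times overlapped. The ZT3 libraries of both genotypes also held more choroid plexus RNA, with a marker sum of 71.1 to 122 FPKM in WT and 61.6 to 176 in iMSN-D2RKO against 4.46 to 12.6 at ZT7, and its part in these differences was not tested. The difference between ZT7 and ZT3 was -0.95 (SE 0.25, adjusted p = 0.155) in WT saline, -0.84 (adjusted p = 0.338) in WT cocaine, 0.25 in iMSN-D2RKO saline and 0.16 in iMSN-D2RKO cocaine. Both WT values rest on the same 3 libraries of ZT3. The WT saline value passed when iMSN-D2RKO cocaine ZT15 replicate 1, which is in neither group, was left out of the shared fit (adjusted p = 0.0434). The difference between the genotypes was 1.10 (SE 0.31) with an adjusted p of 0.425, so that it did not pass after correction over all genes. None of the 40 pairs of member and series was called, where 0.15%, 0.137%, 2.57% and 0.0273% of genes passed in WT saline, WT cocaine, iMSN-D2RKO saline and iMSN-D2RKO cocaine. At an unadjusted p below 0.05 there were 2, 2, 2 and 0 members, where 3.39%, 3.79%, 19.1% and 18.7% of genes were. Time of day and injection cannot be told apart in this comparison, which no uninjected series accompanies.

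Fkbp5 had its lowest mean of the 6 time points at ZT3, where it ran from 10.6 to 13.5 FPKM over 6 libraries, and it ran from 10.9 to 18.7 over the 12 of ZT7. The ZT7 minus ZT3 difference in iMSN-D2RKO saline was 0.53 and did not pass (adjusted p = 0.0857). Without the set-apart libraries it was also 0.53 (SE 0.12) and passed (adjusted p = 0.00864), where 11% of all genes did. Nr3c2 also passed in that fit, with a difference of -0.87 (adjusted p = 0.0374). Neither call was kept when iMSN-D2RKO saline ZT7 replicate 1, a library of low relative depth, was left out too, a fit chosen after seeing the data. There Fkbp5 differed by 0.64 (adjusted p = 0.108) and Nr3c2 by -0.24 (adjusted p = 0.646). In the fit without the set-apart libraries alone, 0.229%, 0.263% and 0.499% of genes passed in WT saline, WT cocaine and iMSN-D2RKO cocaine, and no member. In all 10 groups that hold both kinds of library, Fkbp5 was lower in the set-apart ones, with a mean log2 difference of -0.39.

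When all 6 time points were compared at once, 8 of the 10 members varied with time of day (limma F test, Benjamini-Hochberg), where 51.6% of all genes did. The smallest adjusted p was that of Sgk1 (7.09e-07), followed by Mt2 (1.04e-05). Mt1 (adjusted p = 0.0558) and Nr3c2 (adjusted p = 0.0765) did not pass. Here too time since injection runs along with time of day. The count is to be read against that share, and set-apart libraries fall unevenly over the times. Without them 31.6% of genes passed, and 7 members did, Nr3c1 (adjusted p = 0.279) being the one lost. The JTK_CYCLE rules give an exact p, printed here after Bonferroni correction over periods and phases. Fitted to a cycle of 20 to 24 h with these rules at p below 0.01, few members passed. In WT saline it was Mt2 (exact p = 0.00173), 1 of 10 where 9.81% of genes passed, and in WT cocaine Errfi1 (exact p = 1.90e-04), 1 of 10 where 7.61% passed. In iMSN-D2RKO saline Zbtb16 (exact p = 9.05e-04) and Mt2 (p = 0.00755) passed, 2 of 10 where 2.58% of genes did. No member passed in iMSN-D2RKO cocaine, where 1.1% of genes did and Sgk1 came nearest (exact p = 0.0216). A call in 1 series and not in another shows no difference between them, and the test of that difference called 0 of 40 pairs of member and series pair, as it called 0% of all genes. At an unadjusted p below 0.05 it gave Nr3c2 between the treatments of iMSN-D2RKO and Cdkn1a between the genotypes after cocaine, 1 of 10 each, where 5.54% and 4.83% of genes did.

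The Zbtb16 course in iMSN-D2RKO saline was 1.25, 1.98 and 0.870 FPKM at ZT3 and 3.47, 3.62 and 3.33 at ZT11. It was 4.72, 4.49 and 3.03 at ZT15, and 1.42, 1.95 and 1.79 at ZT23. All 6 evening libraries of this series stood above all 6 morning ones. At ZT7 it was 0.259, 2.72 and 2.76, the first being a library of low relative depth. The call was kept without the set-apart libraries (exact p = 0.00516) and missed the threshold without ZT7 replicate 2 or 3 (p = 0.0108 each).

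The level of the glucocorticoid receptor followed the set-apart libraries. Nr3c1 was 17.96 ± 2.31 FPKM at ZT3 (n = 6), 17.8 ± 1.21 at ZT11 (n = 12), 23.6 ± 5.56 at ZT19 (n = 12) and 21.2 ± 5.10 at ZT23 (n = 12). Without the set-apart libraries the last pair of values was 18.7 ± 2.01 (n = 6) and 18.1 ± 2.40 (n = 8). In the 10 groups that hold both kinds of library, the set-apart libraries had more Nr3c1 in 10, by a mean log2 difference of 0.58. They ranged from 24.9 to 31.9 FPKM, and none of the other 53 reached the lowest of them. Nr3c2 was higher in 9 of these 10 groups, by 0.53. Nr3c2 was lowest in a library of low relative depth, at 1.64 FPKM beside 8.32 and 8.99 in the other libraries of iMSN-D2RKO saline ZT7.

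Errfi1 and Cdkn1a also moved with that axis. Errfi1 was higher in the set-apart libraries in 10 of 10 groups, by 0.43, and Cdkn1a lower in 9 of 10, by a mean of -0.63. In WT cocaine, where Errfi1 was called rhythmic, it was 6.99, 7.98 and 9.26 FPKM at ZT7 and 16.4, 12.02 and 14.1 at ZT19. The first and last libraries of ZT19 are set-apart ones, and the middle one lay above every library of ZT7. That middle library had the highest axis score of those not set apart (15.1, where the lowest set-apart score was 44.3). The call was kept without the set-apart libraries (exact p = 0.00301) and lost when the axis was removed from the values (p = 0.0146). Cdkn1a was 11.7 ± 2.45 FPKM at ZT3 and 6.10 ± 1.89 at ZT19 over all libraries, and 7.39 ± 1.82 at ZT19 without the set-apart ones (n = 6). Tsc22d3 had its lowest values at ZT23, at 21.4 ± 3.95 FPKM (n = 12) against 36.7 ± 8.12 at ZT11 (n = 12), and at 22.8 ± 3.48 without the set-apart libraries (n = 8). An antisense gene overlaps Errfi1 and another overlaps Mt2, and whether the counting kept the strands apart is not given in the sources used here.

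The metallothioneins moved apart along the same axis. Mt2 was lower in the set-apart libraries in all 10 groups, by a mean log2 difference of -1.04, and 4.22% of the genes with a mean above 5 FPKM had a lower value. They held 92.3 to 156 FPKM of Mt2, against 94.3 to 804 in the other libraries, of which 1 was at or under 156. Mt1 was higher in 9 of the 10 groups, by 0.47. The ratio of Mt1 to Mt2 therefore ran from 4.94 to 7.61 with a median of 6.34 in the set-apart libraries, and from 1.503 to 5.12 with a median of 2.11 in the others. 12 of the 13 lay above every other library. The highest of the others was iMSN-D2RKO saline ZT7 replicate 1, at 4117 FPKM of Mt1 and 804 of Mt2. The other libraries of its group were at 607 and 360 FPKM of Mt1. Mt1 and Mt2 are close paralogues, and how reads that match both were shared between them is uncertain.

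Over the day Mt2 was 443 ± 77.1 FPKM at ZT3 (n = 6) and 422 ± 95.8 at ZT11 (n = 12), and 177 ± 68.0 at ZT19 and 189 ± 73.8 at ZT23 (n = 12 each). Without the set-apart libraries it was 234 ± 38.8 at ZT19 (n = 6) and 228 ± 57.0 at ZT23 (n = 8), and still passed the test of time of day (adjusted p = 0.00631). In WT saline Mt2 was 447, 592 and 438 FPKM at ZT3 and 156, 149 and 238 at ZT19, which do not overlap. The JTK_CYCLE calls of Mt2 were lost without the set-apart libraries (exact p = 0.0435 in WT saline and 0.404 in iMSN-D2RKO saline). Mt3, another metallothionein, was tested as a relative and did not pass in the evening contrast (-0.16, SE 0.16).

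**Figure D4:**
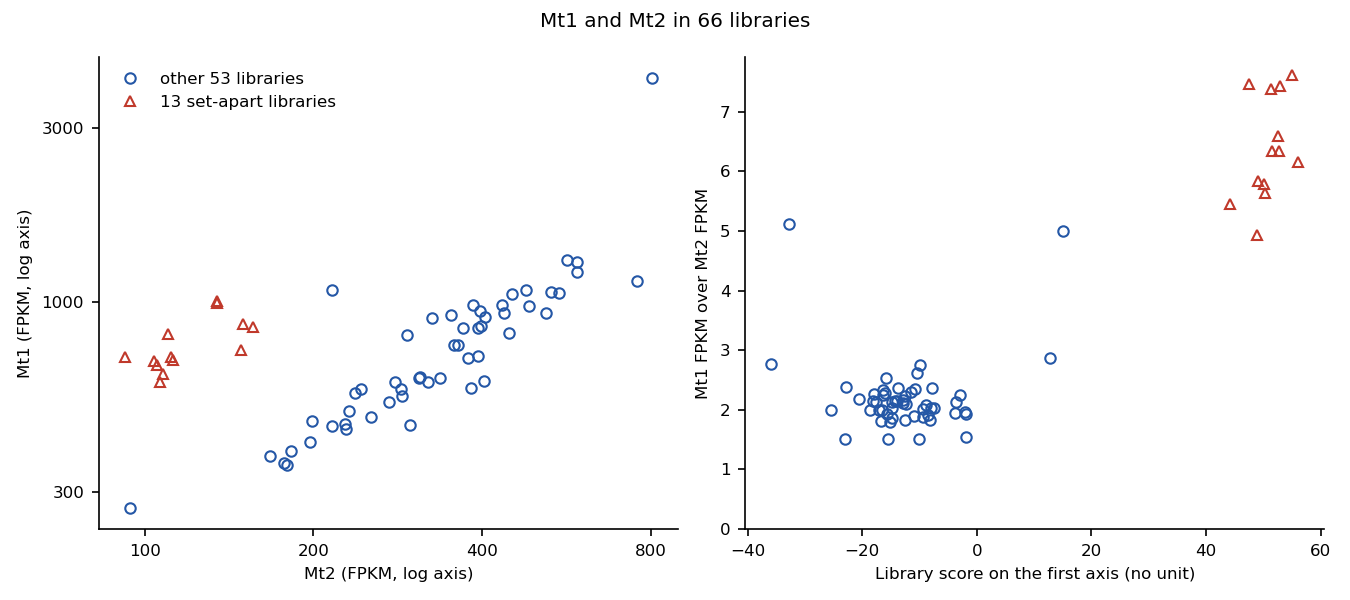
Mt1 against Mt2 (both FPKM, log axes) in the 66 libraries (left), set-apart libraries as triangles, and the ratio of Mt1 to Mt2 (y) against the score of each library on the main axis of variation (x, no unit; right). The 13 set-apart libraries have ratios of 4.94 to 7.61, and the median of the others is 2.11.

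Did cocaine change the set? Averaged over ZT7 to ZT23, no member passed the test: 0 of 10 were called in WT, where 0.0137% of all genes were, and 0 of 10 in iMSN-D2RKO, where 0% were (limma, Benjamini-Hochberg). No member reached an unadjusted p below 0.05 in either genotype, where 2.49% and 4.86% of genes did. The log2 differences lay between -0.14 and 0.13 in WT and between -0.30 and 0.20 in iMSN-D2RKO. For Sgk1 in iMSN-D2RKO the difference was 0.18, with an interval of 2 SE from -0.04 to 0.41. At single time points 0 of 100 pairs of member and contrast were called, where 0.00478% of all were, and 4 of 100 had an unadjusted p below 0.05, where 5.79% of all had.

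The largest of these was Sgk1 in iMSN-D2RKO at ZT15. It was 32.3, 75.7 and 91.3 FPKM after cocaine and 29.3, 34.3 and 31.5 after saline. 2 of the 3 cocaine libraries were high and the first lay among the saline libraries, and the difference was 0.92 (SE 0.25, limma adjusted p = 1). Without that first library it was 1.37 and passed (adjusted p = 0.0165). The highest of the 3, replicate 3, is a set-apart library. Zbtb16 at the same time differed by -0.69 (adjusted p = 1), with 0.927, 4.74 and 1.72 FPKM after cocaine and 4.72, 4.49 and 3.03 after saline. The other pair of values was Nr3c1 and Nr3c2 of iMSN-D2RKO at ZT7, with 0.45 (adjusted p = 0.216) and 0.86 (adjusted p = 0.124), and there the low saline library named above enters. Replicate 2 of that cocaine group is a set-apart library. Its Nr3c1 was the highest of the group, 25.9 FPKM beside 16.9 and 18.4, and its Nr3c2 was the middle value, 10.1. The cocaine effect differed between the genotypes for 0 of 10 members averaged over time, where 0% of genes were called, and for 0 at ZT7, where 0.0137% were. The smallest adjusted p of the 80 tests of a difference between effects over the members was 0.425. None of the pathway lists had a gene called for cocaine in either genotype.

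**Figure D5:**
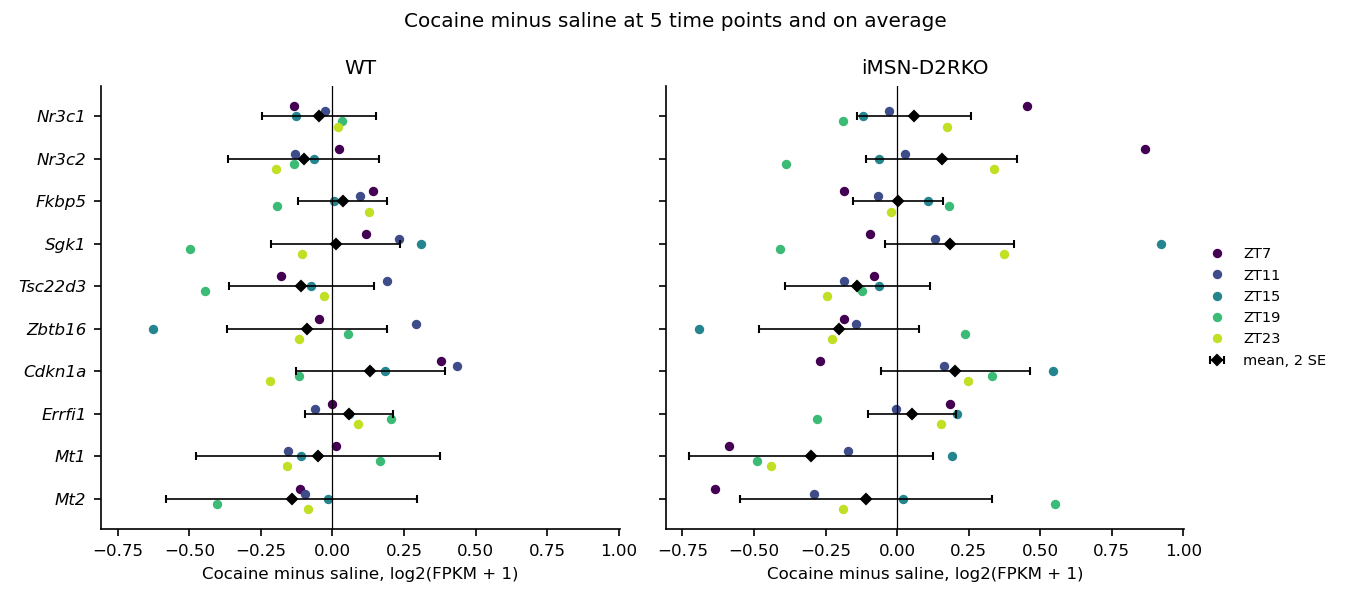
Difference between cocaine and saline on the log2(FPKM + 1) scale (x) for each member (y) in WT (left) and iMSN-D2RKO (right), at each time point from ZT7 to ZT23 (coloured points) and averaged over them (black, bars of 2 SE). The averages lie between -0.30 and 0.20, and Sgk1 of iMSN-D2RKO at ZT15 is the highest point at 0.92.

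Outside ZT3 no member separated the genotypes past the threshold. Averaged over ZT7 to ZT23, 0 of 10 members were called in saline, where 0.212% of genes were, and 0 of 10 in cocaine, where 0.109% were, and none had an unadjusted p below 0.05 in either, where 11.3% and 4.95% of genes did. The log2 differences lay between -0.22 and 0.15 in saline and between -0.30 and 0.13 in cocaine. The smallest adjusted p was 0.462, for Fkbp5 in saline.

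Group means of the members ran together in part, given here as Pearson correlations over the 22 group means of log2(FPKM + 1), which share libraries, depth and the set-apart axis. Nr3c1 had correlations of 0.80 with Errfi1 and -0.85 with Mt2. Without the set-apart libraries these were 0.40 and -0.40. Sgk1 and Tsc22d3 had 0.76, and 0.61 without those libraries. Among genes with a mean of at least 5 FPKM, the gene most like Nr3c1 was Zfp770 (0.97), the one most like Nr3c2 was Tbl1x (0.94) and the one most like Mt2 was Mpdu1 (0.95). Tsc22d3 was closest to Slc2a1 (0.86) and Cdkn1a to Ddit4 (0.87), both of which stand in the list of further glucocorticoid-induced genes. Sgk1 was closest to Polr3e (0.79). For Fkbp5 the closest was Mta2 (0.81), for Zbtb16 Zfp251 (0.66), for Errfi1 1810013L24Rik (0.95) and for Mt1 Pigt (0.88).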

How the data were processed

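The authors aligned single-end, strand-specific poly(A) reads to mm10 with TopHat and Bowtie, assembled and quantified them with the Cufflinks tools, and deposited 1 table of FPKM per gene from Cuffnorm, per the labels and the study's methods (the labels also name CASAVA 1.8.2). FPKM hold no read counts, so that depth is unknown. The 6 ZT3 libraries are listed again with identical values and were counted once.

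Genes that reached 1 FPKM in any library were tested on log2(FPKM + 1) with limma 3.58.1 in R 4.3.3 (empirical Bayes with trend, 1 mean for each of 22 groups), with Benjamini-Hochberg adjustment over all genes and calls below 0.05. Rhythms were tested on FPKM by the JTK_CYCLE rules (periods of 20 and 24 h, p corrected over period and phase, at most 1 replicate per time left out by Dixon's test at 95%), written in Python 3.11.15. Both were tested on simulated data. Labels name no shared culture or litter, and each library is taken as 1 animal. The members and gene lists were chosen with earlier results of these data known. Every member is named in every comparison, pathway genes by role, and for each member the genes of highest correlation. Gene spans are from GENCODE M21 and promoters from RefSeq, both on GRCm38. Alternatives were another pseudocount (0.1), no filter, median-of-ratios scaling, a library score as covariate, libraries left out and a replicate block.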

Additional observations from a re-analysis of the deposited data

How the results depend on the processing

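The 3 members called in the evening, Sgk1, Zbtb16 and Fkbp5, were called under all 9 alternatives and in all 66 fits that left out 1 library. The counts of 0 members for cocaine averaged over time, for the genotypes averaged over time and for the difference in rhythm also held in every alternative run. The count for ZT7 minus ZT3 rose from 0 to 2 without the set-apart libraries (Fkbp5 and Nr3c2), to 6 with the library score as covariate, and to 3 without the set-apart libraries and iMSN-D2RKO saline ZT7 replicate 1, a fit chosen after seeing the data. It ran from 0 to 1 when 1 library was left out, as did cocaine at single time points (Nr3c2 without iMSN-D2RKO saline ZT7 replicate 2 or 3, Sgk1 without iMSN-D2RKO cocaine ZT15 replicate 1) and the genotype count at ZT3. The latter was 0 with only the groups compared. The count for time of day ran from 8 to 10 when 1 library was left out and from 7 to 8 under the other alternatives.

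Rhythm calls depended on the setting. In WT saline the count of 1 became 2 at a corrected p under 0.05, 0 with the library score removed and 0 without the set-apart libraries. In WT cocaine 1 became 3 at p under 0.05, 2 with median-of-ratios scaling and 0 with the score removed. In iMSN-D2RKO saline 2 became 4 at p under 0.05, 0 with Benjamini-Hochberg, and 1 with that scaling, with the score removed or without the set-apart libraries. In iMSN-D2RKO cocaine 0 became 1 (Sgk1) at p under 0.05 and without the set-apart libraries. With 1 library left out these counts ran from 1 to 2, 1 to 3, 0 to 3 and 0 to 1. The cause of these changes was not tested.

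A replicate block changed no count of members in the limma comparisons and was not run for JTK_CYCLE. It raised the further induced genes called in the evening from 6 to 7 (Slc2a1, adjusted p = 0.0475). Also, same-numbered libraries did not deviate together (median correlation -0.0027, against 0.0032 for other numbers), with 25 of 66 libraries closest to one of their own number. The fit of only the groups compared was not run for time of day or rhythm. The differences of Sgk1, Zbtb16 and Fkbp5 followed through the alternatives kept their direction. Of 53 pathway genes, 7 changed the sign of their evening difference without the set-apart libraries, among them Hspa8 (-0.08 to 0.09) and Hsd11b1 (-0.02 to 0.02), none called in either fit, and 1 with median-of-ratios scaling. Read numbers are unknown, so that the precision of low values such as those of Zbtb16 cannot be given, and 3 libraries a group limit single contrasts.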
